A study of Homo sapiens with 9 samples.

Results

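Glycolysis and hypoxia genes were followed across 9 arrays of HL-60 clone 15 cells, an established human promyelocytic leukaemia line whose clone 15 serves as a model of eosinophil precursors. The set was a list of 10 genes: the hexokinases HK1 and HK2, PFKP, PFKFB3, ALDOA, PGK1, ENO1, LDHA, NDRG1 and BNIP3. A gene was measured where the platform annotation named a probe set for it, and of several probe sets for a gene the brightest on average stood for it. This left 6 of the 10 genes, HK1, HK2, PGK1, LDHA, NDRG1 and BNIP3, each with 1 probe set, among 14778 named genes in all. PFKP, PFKFB3, ALDOA and ENO1 were not analysed here.

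There were 3 groups of 3 arrays of total RNA. The first held cells transduced with a lentiviral RhoH construct and given 100 nM 4-hydroxytamoxifen (4-OHT), the agent that switches the construct on (induced RhoH). The second held the same RhoH cells without 4-OHT (uninduced RhoH), and the third held cells transduced with a GFP construct and given 100 nM 4-OHT (GFP). GFP is a fluorescent control protein. The design text calls the samples biological replicates. Induced and uninduced RhoH cells differ in 4-OHT alone by label. With no GFP group lacking 4-OHT, the agent itself and the construct it switches on cannot be told apart there. Induced RhoH and GFP cells differ in construct and in transduced population, which cannot be told apart either. Uninduced RhoH and GFP cells differ in construct, in transduced population and in 4-OHT, so these cannot be told apart in that comparison. The culture medium held 4500 mg/l glucose, and the labels give 5% CO2 and no oxygen level.

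Glycolysis turns glucose into pyruvate in the cytosol. Hexokinases trap glucose as glucose 6-phosphate, phosphoglycerate kinase makes ATP further down, and lactate dehydrogenase reduces pyruvate to lactate. When oxygen is scarce, the hypoxia-inducible factors (HIF) are spared from degradation and raise transcription of many of these enzyme genes, and also of NDRG1 and BNIP3. MYC is another known activator of glycolytic genes. Leukaemia cells in culture commonly run glycolysis at a high rate even with oxygen present.

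The 250 bases upstream of the annotated start of BNIP3, LDHA, HK2 and PGK1 are shown because these genes share HIF as a textbook regulator and yet had different patterns on the arrays. Sequences are from RefSeq on GRCh38.p14, 5′ to 3′ on the gene's strand, with the most upstream window where a gene has several. Capitals mark ACGTG and GCGTG, the cores of HIF-binding elements, on either strand (CACGT and CACGC when read on the other). Where they overlap as CACGTG, an E-box of the kind bound by MYC and other factors, the core lies on both strands and counts for both.
BNIP3 (chr10:131981924-131982173, minus strand): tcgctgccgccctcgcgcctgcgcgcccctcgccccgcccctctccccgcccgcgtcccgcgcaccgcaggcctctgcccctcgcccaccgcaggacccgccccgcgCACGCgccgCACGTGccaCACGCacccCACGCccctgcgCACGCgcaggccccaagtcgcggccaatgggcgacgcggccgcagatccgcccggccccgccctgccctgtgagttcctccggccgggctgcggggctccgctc
LDHA (chr11:18394313-18394562, plus strand): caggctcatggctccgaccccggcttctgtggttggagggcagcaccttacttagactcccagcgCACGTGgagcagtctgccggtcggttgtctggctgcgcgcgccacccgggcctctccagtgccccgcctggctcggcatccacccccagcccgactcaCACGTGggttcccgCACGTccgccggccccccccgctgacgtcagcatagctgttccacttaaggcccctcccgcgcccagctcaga
HK2 (chr2:74833877-74834126, plus strand): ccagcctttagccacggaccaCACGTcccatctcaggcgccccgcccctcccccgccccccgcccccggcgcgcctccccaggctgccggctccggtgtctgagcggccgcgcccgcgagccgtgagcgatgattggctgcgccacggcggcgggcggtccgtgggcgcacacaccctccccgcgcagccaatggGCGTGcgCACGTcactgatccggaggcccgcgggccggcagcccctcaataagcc
PGK1 (chrX:78103998-78104247, plus strand): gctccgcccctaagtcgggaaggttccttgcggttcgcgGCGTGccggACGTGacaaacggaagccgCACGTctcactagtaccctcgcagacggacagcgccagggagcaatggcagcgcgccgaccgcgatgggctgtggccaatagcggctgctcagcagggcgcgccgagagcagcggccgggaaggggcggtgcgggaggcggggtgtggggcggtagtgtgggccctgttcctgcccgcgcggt
The BNIP3 window held 6 such matches and 1 CACGTG. The LDHA window held 5 matches and 2 CACGTG, at positions -185 and -87 counted from the start. The HK2 and PGK1 windows held 3 matches each and no CACGTG. A further window of HK2, at its more downstream start, held 6 matches and 2 CACGTG, and a further window of LDHA held 1 match. HK1 has 7 annotated windows, of which 6 held no match and 1 held a single GCGTG. Its 2 most upstream windows (chr10:69269750-69269999 and chr10:69269755-69270004) overlap over most of their length, so they are not separate sequences. Over 35116 windows of this length, 18.5% held ACGTG, 32.2% GCGTG, 43.2% either of them and 6.34% CACGTG. The windows of NDRG1, also named above as raised by HIF, were not examined. A match describes letters and not a bound site.

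Values are log2 signals, so a difference of 1 is a doubling, and RMA compresses low signals towards the background. Array medians lay between 5.43 and 5.55. MPO, the myeloperoxidase gene that marks promyelocytes, averaged 13.12 ± 0.06 in induced RhoH, 13.39 ± 0.03 in uninduced RhoH and 12.20 ± 0.06 in GFP (SD, n = 3 each). RHOH, the gene on the construct, followed the labels only in part, being higher in induced than in uninduced RhoH but highest in GFP. The log2 signal of RHOH was 5.59 ± 0.14 in arrays labelled induced RhoH, 5.21 ± 0.06 in those labelled uninduced RhoH and 5.93 ± 0.02 in those labelled GFP. This signal was modest, at percentiles 25.1 to 41.5 of the named genes over the arrays, which makes it a weak check of the labels. Whether its 1 probe set reads the construct was not tested. Induced RhoH exceeded uninduced RhoH by 0.38 (SE 0.09, limma adjusted p = 0.0451), a call lost when any array except induced RhoH replicate 3 was left out (limma adjusted p up to 0.171). Both lay below GFP, by a called margin in uninduced RhoH (-0.72, limma adjusted p = 0.000420) and not in induced RhoH (-0.33, limma adjusted p = 0.0717). Every direction below is therefore that of the arrays as labelled. Replicate 1 of both RhoH groups and replicate 3 of induced RhoH deviated most from their group means (SD over genes 0.200 to 0.206, against 0.090 to 0.162 on the others), and member results that depend on single arrays are given with and without them.

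HK1 and HK2, which catalyse the first step of glycolysis, were lower in arrays labelled induced RhoH than in those labelled GFP. HK1, the housekeeping isoform of most tissues, had log2 signals of 5.50, 5.00 and 5.50 in induced RhoH, 5.33, 5.15 and 5.35 in uninduced RhoH, and 6.19, 6.29 and 6.31 in GFP. The RhoH arrays of both kinds overlapped with each other and all lay below the 3 GFP arrays. The log2 fold change was -0.93 (SE 0.14, limma adjusted p = 0.00426) for induced RhoH against GFP, or 1.90-fold lower. For uninduced RhoH against GFP it was -0.98 (SE 0.14, limma adjusted p = 0.000794), or 1.98-fold lower. Induced and uninduced RhoH differed by 0.05, with a 95% confidence interval of -0.25 to 0.36 (limma adjusted p = 0.934). The HK1 calls against GFP held in all 19 alternative settings, with limma adjusted p up to 0.0292. Its signal was modest, with a mean at percentile 34.2 of the named genes and 23.4 to 31.3 on the RhoH arrays. The size of the fold is therefore uncertain, and compression of low signals may understate it.

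HK2, the inducible hexokinase of tumour and muscle cells, had log2 signals of 8.13, 8.60 and 8.72 in induced RhoH, 8.70, 8.64 and 8.80 in uninduced RhoH, and 9.16, 9.19 and 9.11 in GFP. All RhoH arrays were again below all GFP arrays, and induced RhoH replicate 1 was the lowest of the 9. Against GFP the log2 fold change was -0.67 in induced RhoH (SE 0.14, limma adjusted p = 0.0244), or 1.59-fold lower. It was -0.44 in uninduced RhoH (SE 0.14), which missed the threshold at an adjusted p of 0.0625 with limma. The induced call was lost when GFP replicate 1, 2 or 3 was left out (limma adjusted p = 0.0975, 0.109 and 0.0872), with fold changes of -0.67, -0.65 and -0.69. It was also lost with all probe sets in the fit (0.0598) and with only the 6 arrays compared (0.0702), both by limma. The uninduced difference passed when induced RhoH replicate 1 or 3 was left out of the shared estimate of spread (limma adjusted p = 0.00535 and 0.0338). It passed as well after renewed quantile normalization (0.0411), median centring (0.0421), without the dimmest 25% of genes (0.0464), with only the 6 arrays compared (0.00516), with array weights (0.00303) and without both RhoH replicate 1 arrays (0.0104), all adjusted p by limma. Induced minus uninduced RhoH was -0.23, with an interval of -0.54 to 0.08 (limma adjusted p = 0.554), and was -0.05 without induced RhoH replicate 1 and -0.35 without its replicate 3.

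**Figure D1:**
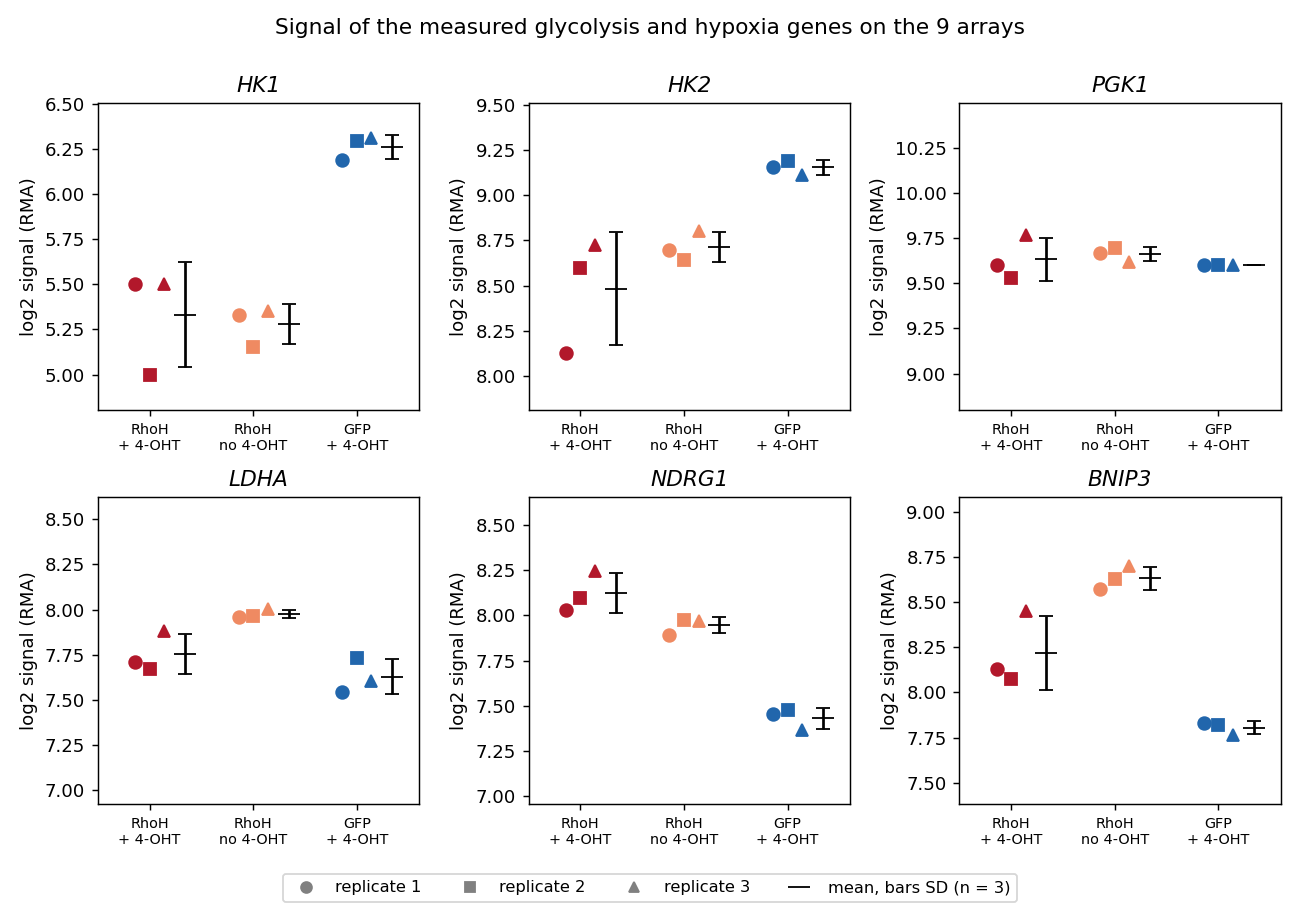
Log2 RMA signal (y axis, a span of the same height in every panel) of the 6 measured genes in the 3 groups of arrays as labelled (x axis). Coloured symbols are single arrays with their replicate number by shape, and the black mark and bars are the mean and SD of 3 arrays. HK1 and HK2 lie higher in the 3 GFP arrays than in all 6 RhoH arrays, and NDRG1 and BNIP3 lie lower in GFP.

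PGK1, whose enzyme makes the first ATP of glycolysis, was the least variable of the 6 genes. Its log2 signals were 9.60, 9.53 and 9.76 in induced RhoH, 9.67, 9.69 and 9.62 in uninduced RhoH, and 9.60, 9.60 and 9.60 in GFP, a range of 0.24 over all arrays. None of its fold changes passed the test. They were -0.03 for induced against uninduced RhoH (interval -0.22 to 0.16), 0.03 for induced RhoH against GFP (-0.16 to 0.22) and 0.06 for uninduced RhoH against GFP (-0.13 to 0.25). The uninduced RhoH arrays nevertheless lay just above the GFP arrays with no overlap. Limma adjusted p-values were 0.944, 0.900 and 0.710 in that order.

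LDHA, which encodes the lactate dehydrogenase subunit that favours lactate, was higher in uninduced RhoH than in GFP. Its log2 signals were 7.71, 7.67 and 7.88 in induced RhoH, 7.96, 7.96 and 8.002 in uninduced RhoH, and 7.54, 7.73 and 7.61 in GFP. The uninduced arrays were the 3 highest, and induced RhoH overlapped with GFP. Uninduced RhoH exceeded GFP by 0.35 on the log2 scale (SE 0.09, limma adjusted p = 0.0248), or 1.27-fold. Without uninduced RhoH replicate 2 or 3 or GFP replicate 1 or 3 the call was lost (limma adjusted p = 0.0622, 0.0828, 0.109 and 0.0953). With these included, the call was lost in 5 of the 19 alternative settings. Induced RhoH was at 0.12 against GFP (interval -0.07 to 0.32, limma adjusted p = 0.546) and at -0.22 against uninduced RhoH (interval -0.42 to -0.02, limma adjusted p = 0.264). The value against GFP was 0.06 without induced RhoH replicate 3 and 0.08 without GFP replicate 1.

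NDRG1 and BNIP3, the pair of hypoxia-induced genes outside glycolysis, were both higher in uninduced RhoH than in GFP, and NDRG1 also in induced RhoH. NDRG1 encodes a stress-responsive protein linked to differentiation and iron handling. Its log2 signals were 8.03, 8.09 and 8.24 in induced RhoH, 7.89, 7.97 and 7.97 in uninduced RhoH, and 7.45, 7.48 and 7.37 in GFP. The 3 groups were stacked without overlap, with induced RhoH on top. Against GFP, NDRG1 was 1.61-fold higher in induced RhoH (log2 fold change 0.69, SE 0.09, limma adjusted p = 0.00156) and 1.43-fold higher in uninduced RhoH (0.51, SE 0.09, limma adjusted p = 0.00245). Both calls held in all 19 alternative settings. The step between induced and uninduced RhoH, 0.18 with an interval of -0.01 to 0.37, missed the threshold (limma adjusted p = 0.399) and was 0.12 without induced RhoH replicate 3.

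BNIP3 encodes a BCL2-family protein of the outer mitochondrial membrane that takes part in mitophagy, the removal of mitochondria. Its log2 signals were 8.13, 8.07 and 8.45 in induced RhoH, 8.57, 8.62 and 8.70 in uninduced RhoH, and 7.83, 7.82 and 7.76 in GFP. Here too the 3 groups did not overlap, but uninduced RhoH was the highest. Uninduced RhoH exceeded GFP 1.77-fold (log2 fold change 0.83, SE 0.11, limma adjusted p = 0.000511). This call, too, held in all 19 alternative settings. Induced RhoH lay between, at 0.41 above GFP (SE 0.11, limma adjusted p = 0.0608) and -0.41 against uninduced RhoH (SE 0.11, limma adjusted p = 0.0665). Both steps missed the threshold narrowly. Without induced RhoH replicate 3, the array of its group nearest to uninduced RhoH, the step from uninduced RhoH was -0.53 and passed (limma adjusted p = 0.00939). It also passed after renewed quantile normalization (-0.43, 0.0223), median centring (-0.44, 0.0275), with the dimmest 25% of genes left out (-0.41, 0.0479) and with array weights (-0.54, 0.00481), all by limma. The step from GFP passed in the same 4 settings, at 0.48, 0.39, 0.41 and 0.33 (limma adjusted p = 0.0145, 0.0385, 0.0456 and 0.0310). In the remaining settings, 14 of 19 for the step from uninduced RhoH and 15 of 19 for that from GFP, the steps stayed uncalled. Limma adjusted p there reached 0.234 and 0.220.

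Counted together, none of the 6 genes passed in induced against uninduced RhoH by limma, where 3.78% of all 14778 genes were called (3.02% higher and 0.751% lower). LDHA and BNIP3 had an unadjusted p under 0.05 in that comparison, both lower. In induced RhoH against GFP, 1 was higher (NDRG1) and 2 lower (HK1, HK2), against 4.49% of all genes called (1.74% higher and 2.75% lower). In uninduced RhoH against GFP, 3 were higher (LDHA, NDRG1, BNIP3) and 1 lower (HK1), against 15.3% (6.01% higher and 9.27% lower). The groups did not overlap for 3, 4 and 6 of the 6 genes in these comparisons, where 14.5%, 22.5% and 37.3% of all genes did not. The median fold change of the 6 was -0.13, 0.08 and 0.20 on the log2 scale, beside -0.0043, 0.033 and 0.048 over all genes. The comparisons share arrays, so their values are not independent.

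**Figure D2:**
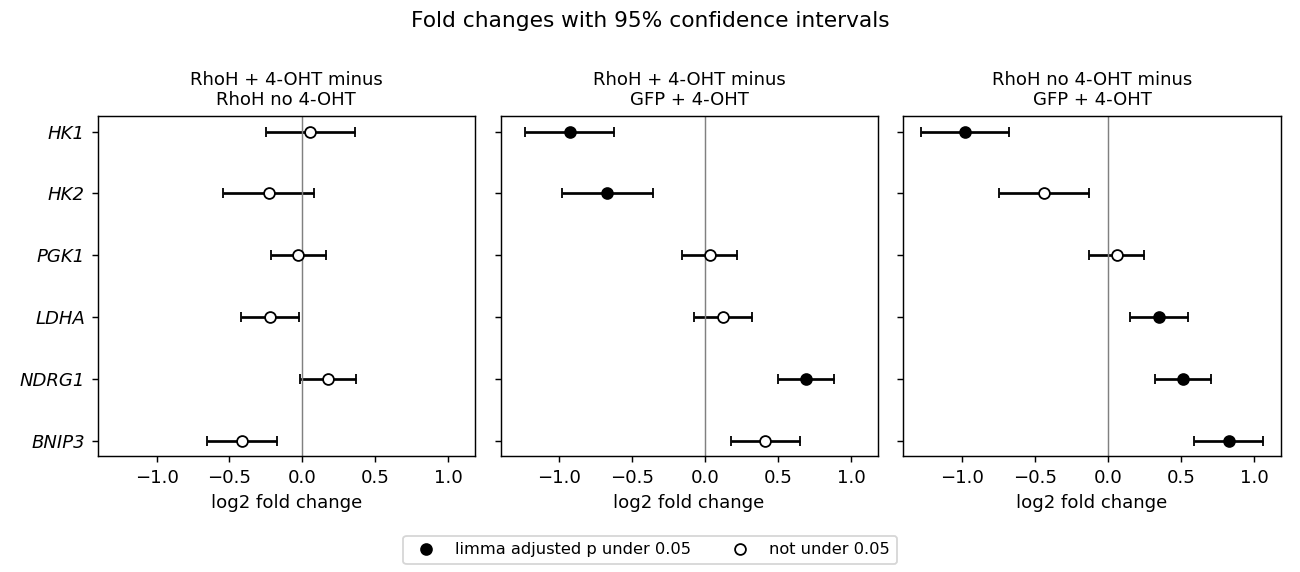
Log2 fold change (x axis) of each measured gene (rows) in the 3 comparisons of arrays as labelled, with 95% confidence intervals of the limma fit. Filled points passed a limma adjusted p of 0.05 and open points did not. Both hexokinases lie left of 0 and NDRG1 and BNIP3 right of 0 in the 2 comparisons with GFP, with HK2 open in uninduced RhoH and BNIP3 open in induced RhoH, while PGK1 stays near 0.

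A wider list of 135 genes of glucose metabolism, the HIF pathway, hypoxia targets, regulators of glycolysis, mitophagy and the NDRG family was set beside the 6. Of these, 81 were measured. HIF1A, the gene of the best-known HIF subunit, and the glucose transporter genes SLC2A1 and SLC2A3 were not analysed here. In induced RhoH against GFP, 2 of the 81 were higher and 3 lower (6.17% called, beside 4.49% of all genes). The median of the 81 was -0.02, beside 0.03 over all genes. VEGFA, the hypoxia-induced vascular growth factor gene, was higher (log2 fold change 0.60, SE 0.11, limma adjusted p = 0.0134), as was MYC (0.76, SE 0.11, limma adjusted p = 0.00469). TIGAR (-0.66), which lowers the glycolytic activator fructose 2,6-bisphosphate, the hypoxia-induced histone demethylase KDM3A (-0.58) and the glycogen synthase GYS1 (-0.51) were lower (limma adjusted p = 0.0385, 0.0257 and 0.0470). Only MYC was called when GFP replicate 1, 2 or 3 was left out, and 8 genes were called without induced RhoH replicate 3. Adjusted p-values by limma then reached 0.168 for TIGAR, 0.110 for KDM3A, 0.174 for GYS1 and 0.0669 for VEGFA. Leaving out replicate 3 of uninduced RhoH or replicate 2 of induced RhoH gave 3 called genes, replicate 1 of induced RhoH 2, and both RhoH replicate 1 arrays 8.

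In uninduced RhoH against GFP, 7 of the 81 were higher and 11 lower (22.2% called, beside 15.3% of all genes), with a median of -0.04 beside 0.05. The higher ones spanned several steps. They were MYC (1.61), the lipid-droplet gene HILPDA (0.82) and VEGFA (0.78), both hypoxia-induced, and BSG (0.43), the partner of the lactate transporters. LDHB (0.40), the other main lactate dehydrogenase subunit, PHB2 (0.39), a mitophagy receptor, and DLD (0.33), a subunit of pyruvate dehydrogenase, were also higher. MYC averaged 10.83 ± 0.21 in induced RhoH, 11.68 ± 0.04 in uninduced RhoH and 10.07 ± 0.10 in GFP (SD, n = 3 each). HILPDA averaged 7.70 ± 0.36, 8.28 ± 0.21 and 7.46 ± 0.03 in the same groups. The order of the means in both, uninduced RhoH over induced RhoH over GFP, was that of BNIP3 and LDHA. It was also that of the other genes called higher, VEGFA, BSG, LDHB, PHB2 and DLD, and of the promyelocyte marker MPO. The order was thus not particular to MYC, HILPDA, BNIP3 and LDHA.

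Among the 11 genes called lower in uninduced RhoH against GFP, the largest differences were those of KLF10 (-1.30), a zinc finger factor induced by TGF-beta, and KDM3A (-1.03). The LC3-family genes GABARAPL1 (-1.01) and MAP1LC3B (-1.01), whose proteins coat autophagosomes, followed. RRAGC (-0.78), a GTPase that signals amino acids to mTORC1, TIGAR (-0.69) and the glycolytic triose phosphate isomerase gene TPI1 (-0.63) came next. EGLN1 (-0.55), the oxygen-sensing hydroxylase that marks HIF for degradation, WSB1 (-0.51) and PGD of the pentose phosphate pathway (-0.41) followed, and the kinase gene MTOR (-0.33), not recomputed with arrays left out, had the smallest. KDM3A averaged 8.50 ± 0.10 in induced RhoH, 8.05 ± 0.24 in uninduced RhoH and 9.08 ± 0.05 in GFP. EGLN1 averaged 8.85 ± 0.14, 8.56 ± 0.19 and 9.12 ± 0.08 in the same groups. Hypoxia-induced genes thus lay on both sides, with VEGFA and HILPDA higher and KDM3A, EGLN1 and WSB1 lower. Limma adjusted p-values for these 18 genes ran from 9.37e-06 for MYC to 0.0357 for DLD. The calls of PGD, DLD, PHB2 and BSG were lost when any GFP array was left out (limma adjusted p up to 0.0672, 0.123, 0.113 and 0.0933). They were also lost without uninduced RhoH replicate 2, for DLD, PHB2 and BSG without replicate 3, and for PHB2 without replicate 1. TIGAR lost its call without GFP replicate 3 (0.0593) and WSB1 without GFP replicate 1 (0.0510).

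By list, limma called none of 25 measured hypoxia-induced genes in induced against uninduced RhoH, and its unadjusted p was below 0.05 for 3 higher and 1 lower. In that comparison 3 of the 81 genes were higher and 1 lower (4.94% called, beside 3.78% of all genes), with a median of -0.0018 beside -0.0043. KLF10 rose by 1.10 on the log2 scale (SE 0.14, limma adjusted p = 0.00221) and MYC fell by 0.85 (SE 0.11, limma adjusted p = 0.00287), both in all 19 alternative settings. ARNT, the partner subunit of the HIF proteins, rose by 0.38 (SE 0.09, limma adjusted p = 0.0402), and GABARAPL1 by 0.71 (SE 0.16, limma adjusted p = 0.0388). With arrays left out singly, ARNT lost its call in all cases but uninduced RhoH replicate 2, and GABARAPL1 in all but uninduced RhoH replicates 1 and 2 (limma adjusted p up to 0.137 and 0.0916). The 4 called genes fell to 2 without uninduced RhoH replicate 3, induced RhoH replicate 1 or 2, or any GFP array. Limma called none of the 7 measured genes listed as other glycolytic enzymes, a list that includes the regulator TIGAR. Its unadjusted p was below 0.05 for 1 higher and 1 lower. GAPDH was at 0.03 and the glucose phosphate isomerase gene GPI at -0.19 (limma adjusted p = 0.941 and 0.526).

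**Figure D3:**
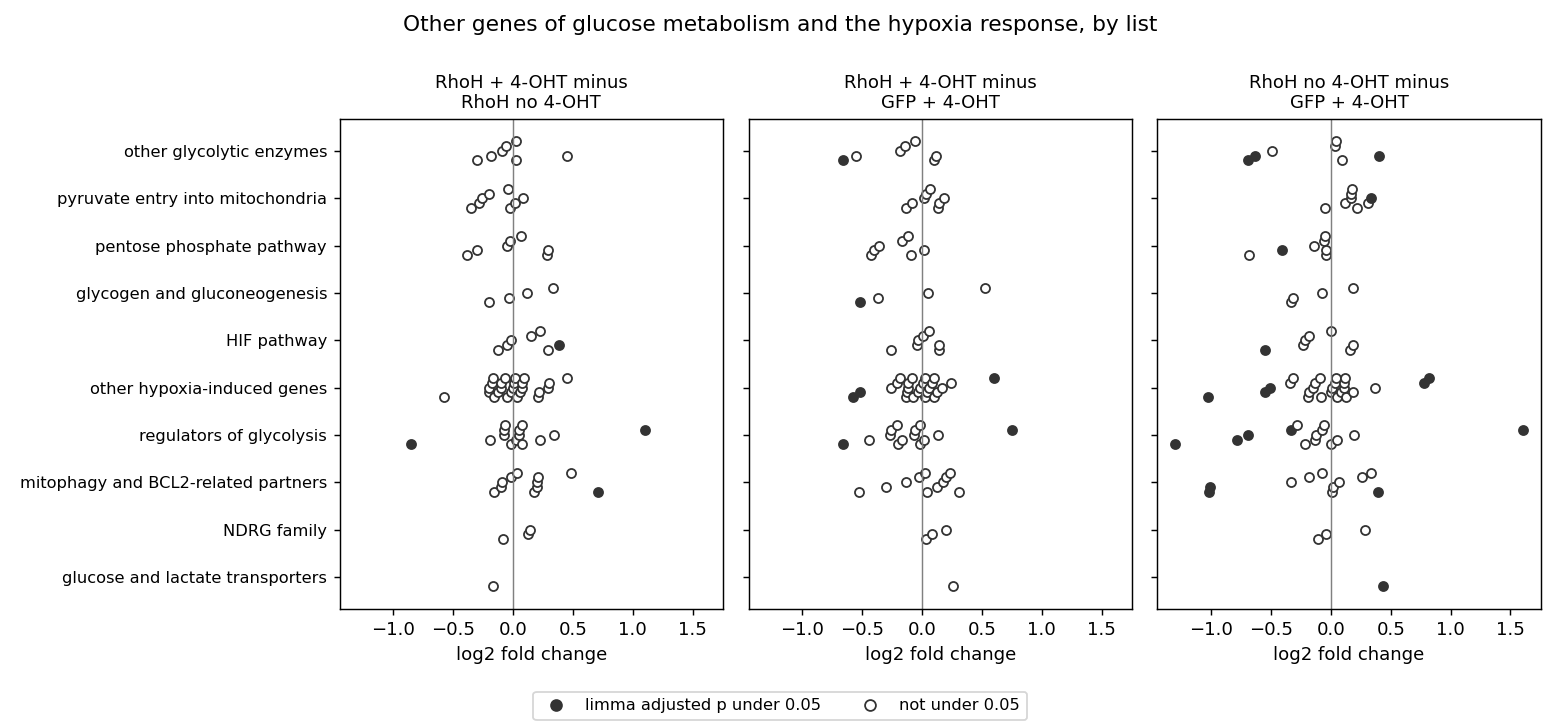
Log2 fold change (x axis) of the 81 other measured genes, by list (rows), in the 3 comparisons of arrays as labelled. Each circle is a gene, vertical offsets only separate circles, and a gene of several lists is drawn in each. Filled circles passed a limma adjusted p of 0.05, which 4, 5 and 18 of the 81 genes did, on both sides of 0 in each comparison.

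**Figure D4:**
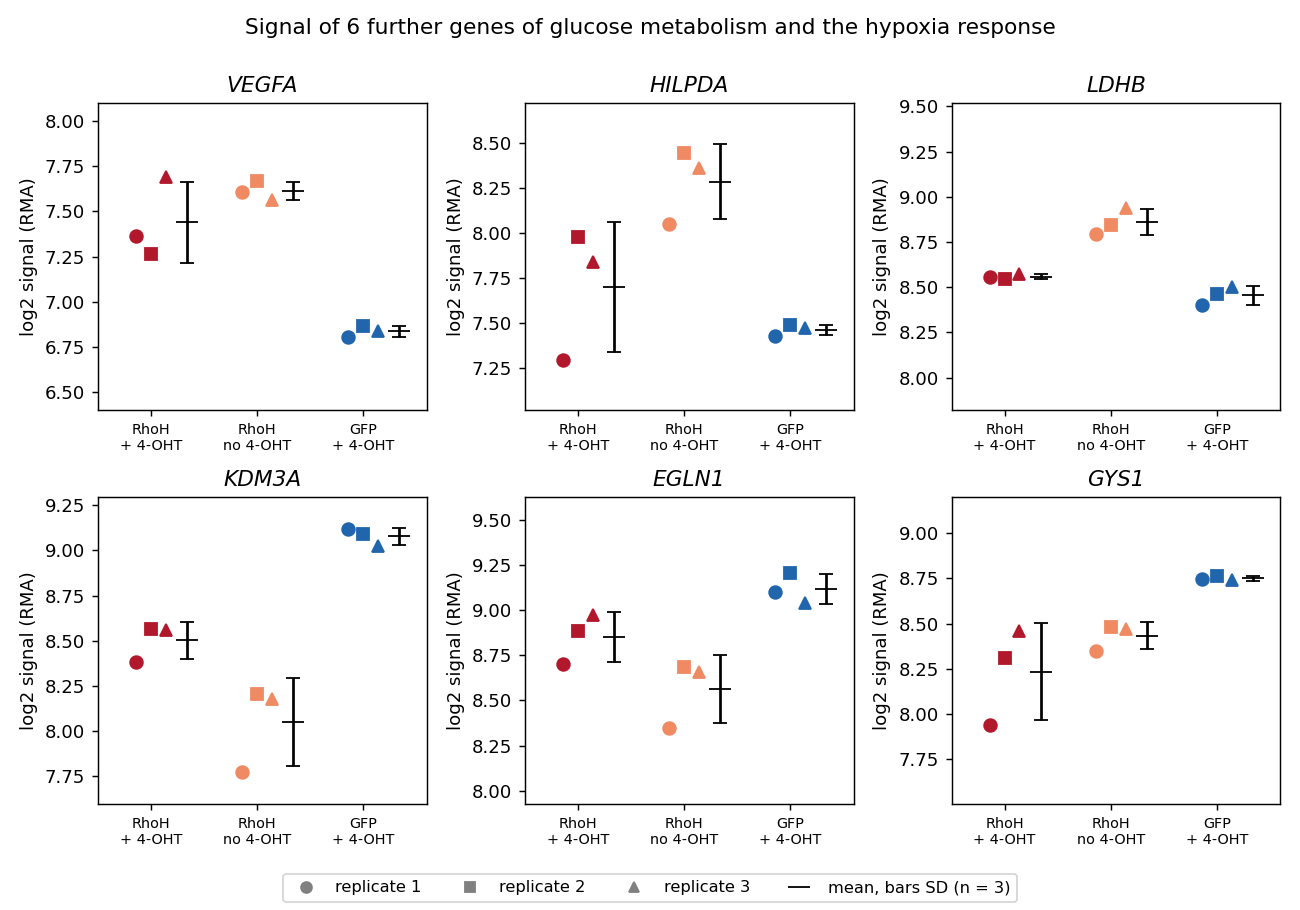
Log2 RMA signal (y axis, a span of the same height in every panel) of VEGFA, HILPDA, LDHB, KDM3A, EGLN1 and GYS1 in the 3 groups of arrays as labelled (x axis). Coloured symbols are single arrays, and the black mark and bars are the mean and SD of 3 arrays. VEGFA, HILPDA and LDHB have their highest group mean in uninduced RhoH, whereas KDM3A, EGLN1 and GYS1 have theirs in GFP.

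The comparisons with GFP also differed in markers of myeloid maturation. Of 5 measured progenitor markers, 4 were higher in induced RhoH than in GFP and 4 in uninduced RhoH than in GFP (80% each, beside 4.49% and 15.3% of all genes). Their mean log2 signal per array was 11.24 to 11.55 in induced RhoH, 11.49 to 11.60 in uninduced RhoH and 10.23 to 10.27 in GFP. CTSG, the cathepsin G gene, was at 1.64 and 2.47 and PRTN3, the proteinase 3 gene, at 1.69 and 1.84 in those comparisons, and CTSG was also lower in induced than in uninduced RhoH (-0.83). CSF3R, the remaining progenitor marker, was at 0.18 in induced and -0.23 in uninduced RhoH against GFP, each without overlap. It was at 0.41 in induced against uninduced RhoH, and none of its values was called. Of 4 eosinophil markers, 2 and 3 were higher in those 2 comparisons with GFP (50% and 75%, beside 4.49% and 15.3% of all genes). SIGLEC8 was called in neither, at 0.13 and 0.05. Array means of the 4 were 6.69 to 7.13 in induced RhoH, 6.81 to 7.43 in uninduced RhoH and 5.81 to 5.92 in GFP. Of 8 monocyte and macrophage markers, 1 (CD14) and 3 (CD14, CD68 and CD86) were lower (12.5% and 37.5%, beside 4.49% and 15.3% of all genes), with array means of 6.75 to 6.95, 6.36 to 6.51 and 7.04 to 7.14. By sign the list did not move as a whole, since 5 and 4 of the 8 had fold changes above 0, with medians of 0.05 and -0.12. Those above 0 in both included CD163, MSR1 and VCAN, which were dim, at percentile 16.3 or below of the named genes on every array. The count of signs thus rests largely on dim genes. LYZ lay above GFP without overlap in both comparisons (0.12 and 0.22) and MSR1 in induced RhoH (0.25), none of them called. Below GFP without overlap and also not called were CD68 (-0.30) and CD86 (-0.62) in induced RhoH and CSF1R (-0.31) in uninduced RhoH. CD68 and CD86 were also higher in induced than in uninduced RhoH. Limma called none of 18 proliferation markers in either comparison of induced RhoH (unadjusted p below 0.05 for 2 higher and 0 lower in each). In uninduced RhoH against GFP, 2 of the 18 were called, MKI67 and TOP2A, both lower (11.1%, beside 15.3% of all genes). In that comparison 10 of the 18 had a fold change above 0, the median was 0.05, and the groups did not overlap for 4 higher and 5 lower. CD2 was the only lymphoid or erythroid marker measured, at 5.52 to 5.93 on all arrays. In such bulk samples fewer cells of a type and less RNA per cell cannot be told apart, and the part of these markers in the results for the 6 genes was not tested.

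For each of the 5 genes called in some comparison, the named genes with the most similar profile were sought by the root mean square difference of log2 values over the 9 arrays, each gene centred on its own mean. HK2 was closest to TMEM117 and to GYS1 (0.089 for each, beside an SD of HK2 over the arrays of 0.34). GYS1 was at -0.20 in induced against uninduced RhoH, -0.51 in induced RhoH against GFP and -0.32 in uninduced RhoH against GFP, where HK2 was at -0.23, -0.67 and -0.44. HK1 was closest to GALNT14 (0.10) and MVP (0.12). LDHA was closest to MTCH2 (0.043), a protein of the outer mitochondrial membrane, and PARK7 (0.044). NDRG1 was closest to the kinase gene STK39 (0.071) and the histone demethylase gene KDM5B (0.071), and BNIP3 to PEMT (0.077) of phospholipid synthesis and IMPDH1 (0.080) of guanine nucleotide synthesis. These were the closest among all named genes outside the set and are given as a description, with no test.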

How the data were processed

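Total RNA of 9 samples was hybridised to Affymetrix whole-transcript arrays. The table deposited by the authors gives log2 values of 43550 probe sets. The tools named in the submitters' processing notes are RMA, limma and Affymetrix Power Tools. Their versions and the genome build are not given in the sources used here. Background correction, quantile normalization and probe summary by RMA compress low signals. The platform annotation named 15659 probe sets, all matched by Entrez identifier to RefSeq (GRCh38.p14), and the probe set with the highest mean was kept for each of 14778 genes. Groups came from the sample titles. The 3 group means were fitted over all 9 arrays with limma 3.58.1 in R 4.3.3 (6 residual and 3.86 prior degrees of freedom), with Benjamini-Hochberg adjustment over 14778 genes and calls at 0.05. Confidence intervals are 95% and cover single genes. The number of arrays limits the precision. Exact permutation of 3 against 3 arrays cannot go below 0.1 and was not used for calls. All 6 measured genes of the set are named, with MYC and RHOH. Of the wider list, the 10 highest and 10 lowest called genes per comparison are named. Marker lists have up to 2 examples unless a count of 5 or fewer is spelled out. GAPDH, GPI, SLC2A1, SLC2A3, MTOR, LYZ, MSR1, CD163, VCAN, CSF1R, CSF3R and SIGLEC8 were chosen after values were seen. The members, lists and the setting without both RhoH replicate 1 arrays were chosen with earlier results of these data known.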

Additional observations from a re-analysis of the deposited data

How the results depend on the processing

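Of 1425 single-gene values (25 genes, 3 comparisons, 19 alternative settings), 1287 kept direction and side of the threshold, 83 lost a call, 42 gained one and 13 changed sign, all 13 in differences without a call; causes were not tested beyond what a setting removes. In induced against uninduced RhoH, no called gene of the 6 became 1 (BNIP3, lower) after renewed quantile normalization, median centring, without the dimmest 25% of genes or with array weights (0 to 1 when leaving out single arrays). The 4 called pathway genes became 10 after quantile normalization, 8 with array weights, and 2 with all probe sets or with the 6 arrays compared (2 to 4 leaving out single arrays). The 558 calls over all genes became 953, 950, 314 and 190 in those settings (304 to 666, at most 371 without uninduced RhoH replicate 3 or any GFP array), and 61.7% instead of 80.1% were higher after quantile normalization. In induced RhoH against GFP the 5 pathway calls became 8, 11, 2 and 3 in the same order and 8 without both RhoH replicate 1 arrays (1 to 8), and the 664 over all genes became 1176 with array weights and 403 with all probe sets (279 to 861, at most 302 without any one GFP array). In uninduced RhoH against GFP, array weights gave 37 instead of 18 pathway calls (12 to 23) and 4326 instead of 2258 over all genes (1450 to 2670, with 1450 and 1484 without GFP replicate 2 and 3). The member counts of 3 and 4 against GFP ran from 2 to 3 and from 3 to 5 leaving out single arrays.

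RHOH lost its call in induced against uninduced RhoH after median centring (0.36), with all probe sets and with 6 arrays (0.38 each) and without both replicate 1 arrays (0.39), from 0.32 to 0.45 leaving out single arrays; against GFP it passed after quantile normalization (-0.37), from -0.40 to -0.26. Signs changed for HK1 in induced against uninduced RhoH (-0.15 with array weights, -0.0035 without both replicate 1 arrays, -0.0302 to 0.22 leaving out single arrays) and TIGAR (-0.0052 after quantile normalization, -0.0588 with array weights, -0.0985 to 0.14), for PGK1 in the same comparison (-0.0949 to 0.0227) and in induced RhoH against GFP (-0.0310 with array weights, -0.0367 to 0.0810), and for DLD in induced RhoH against GFP (-0.00032 to 0.15). Deviations of arrays with the same replicate number (1, 2 and 3) correlated at 0.543, 0.368 and 0.065 in induced against uninduced RhoH. The values were 0.101, 0.154 and 0.0081 in induced RhoH against GFP. In uninduced RhoH against GFP they were 0.131, 0.153 and -0.026. No comparison had all its values above 0.1, and the main fit used no block. A pairing of some replicates is thus not excluded. With replicate number as a block, called genes of the 6 were 0, 3 and 4, pathway calls 5, 6 and 21 and calls over all genes 684, 820 and 2558, and 2 of 75 single-gene results gained a call. Signal over background limits HK1 and other dim genes.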
